A study of Saccharomyces cerevisiae with 23 samples.

Results

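The comparison described here is between cultures of the budding yeast Saccharomyces cerevisiae given zinc sulphate and cultures given no metal, both without a statin. The samples were chosen by their titles and make up 6 of the 17 biological samples of the series, hybridised on 7 of its 23 arrays. There were 3 ZnSO4 cultures, of which the third was hybridised to 2 arrays that were averaged, and 3 untreated cultures on 1 array each. All cultures were of the laboratory strain BY4741a carrying pdr5Δ, a deletion of the drug efflux pump gene PDR5, in synthetic complete medium with 2% glucose, 0.25 mM of the metal chelator EDTA and 0.1% DMSO at 30°C. The ZnSO4 cultures received 2 mM ZnSO4 and the untreated cultures received no metal, so the controls also grew with EDTA. Added zinc, added sulphate and any binding of the EDTA by zinc vary together between the groups and cannot be told apart. Both were started at an optical density (OD600) of 0.1 and collected near 0.8. Each array carried sample RNA in Cy3 against a pool of RNA from all 6 conditions of the series in Cy5, and every value below is the log2 ratio of the sample to that pool, so a dye effect common to all arrays cancels between groups. The remaining groups of the series received 1 mM CuSO4, a statin at 5 µg/mL, or the statin with either metal.

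Yeast senses zinc through the transcription factor Zap1, which turns on genes for zinc uptake and release from the vacuole when cellular zinc is low. Iron is sensed separately, through Aft1 and its relative Aft2, which turn on high-affinity iron uptake when the mitochondrial supply of iron-sulfur clusters is low. Iron-sulfur clusters and heme are cofactors of enzymes in leucine, lysine, glutamate and biotin synthesis and of the respiratory chain, and several of these genes are known to be expressed less when iron is short. EDTA is a chelator that binds zinc, copper and iron.

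The arrays held 6256 gene probes spotted in duplicate, and 5606 genes were well above background on every array of at least 1 group and were tested. Of the spots on an array, 83.0% to 98.7% were well above background in the 6 cultures, with replicate 3 lower (83.0% to 86.2%) than replicates 1 and 2. The files give each replicate number its own scan, so the replicate number is also the scan. Over all genes the ZnSO4 cultures correlated with each other at 0.740 to 0.858 and the untreated cultures at 0.774 to 0.880, while a ZnSO4 array and an untreated array correlated at 0.276 to 0.492. The PDR5 probe was well above background on 0 of 4 ZnSO4 arrays and 0 of 3 untreated arrays, and so were the probes of HIS3 and LEU2, which the BY4741 background also lacks. The list of genes deleted or disrupted in the strain also held MET17 and URA3. Of its 5 genes 0 were well above background on every array of any group. All 7 genes specific to the a mating type were tested, and 3 of 4 genes specific to the alpha type were tested too. Of these, STE3 and SAG1 were well above background on all 7 arrays, and the pheromone gene MF(ALPHA)1 on 3 of 4 ZnSO4 and 2 of 3 untreated arrays. MF(ALPHA)1 was at 0.68, 0.61 and 0.64 in the ZnSO4 cultures against -0.28, -0.37 and -0.33 in the untreated cultures, with a limma adjusted p of 0.0514, or 0.0243 with the replicate as a block. Its part in the results was not tested.

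ZnSO4 and untreated cultures differed in 928 of the 5606 genes (16.6%) at an adjusted p under 0.05. Of these, 493 (8.79%) were higher and 435 (7.76%) lower in ZnSO4. Adjusted p-values here are from limma, fitted over all 17 samples and corrected by Benjamini-Hochberg over all genes tested. The change was at least 2-fold in 167 genes, 81 higher and 86 lower. In 927 of the 928 genes all 3 ZnSO4 cultures differed from the untreated culture of the same number in the same direction. The genes were called on these same values, so this agreement is not separate support for the calls. Over all 5606 genes, 2033 (36.3%) had ZnSO4 and untreated values that did not overlap. With the replicate number as a block 684 genes were higher and 677 lower, and these included all 928. The counts were smaller without any whole replicate: without replicate 3 of every group 159 were higher and 139 lower, without replicate 1 253 and 193, and without replicate 2 320 and 256. Leaving out ZnSO4 replicate 1 or untreated replicate 1 alone gave 279 and 280 lower genes.

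The largest single change was in ZRT1, the high-affinity zinc transporter of the plasma membrane. ZRT1 stood at -3.70, -3.90 and -3.87 in the 3 ZnSO4 cultures and at 1.10, 1.22 and 1.22 in the 3 untreated cultures. The cultures of each group lay within 0.2 of each other on the log2 scale and the groups were far apart. The difference was -5.00 ± 0.16 (SE, n = 3 each), a 32.0-fold lower level in ZnSO4, with a limma adjusted p of 2.81e-11.

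Of 9 genes for moving zinc across membranes, 5 were lower and 0 higher in ZnSO4, and the median change of the 9 was -0.57, against 0.003 over all genes tested. The low-affinity transporter ZRT2 was at -1.35, -0.95 and -1.54 in ZnSO4 and at 0.82, 0.96 and 0.56 in untreated cultures. ZRT3, which releases zinc from the vacuole, was at -1.41, -1.39 and -1.08 in ZnSO4 and at 0.81, 0.59 and 0.95 in untreated cultures. FET4, a low-affinity transporter that carries iron, copper and zinc, was at -1.39, -0.97 and -1.01 in ZnSO4 and at 0.93, 0.99 and 1.00 in untreated cultures. All 3 genes were below the pool in every ZnSO4 culture and above it in every untreated culture, and they fell by close amounts. The differences were -2.06 ± 0.16 for ZRT2 (4.16-fold lower, limma adjusted p 7.87e-07), -2.08 ± 0.13 for ZRT3 (4.21-fold lower, adjusted p 1.06e-07) and -2.10 ± 0.17 for FET4 (4.28-fold lower, adjusted p 1.48e-06).

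COT1, a vacuolar transporter that brings zinc and cobalt into the vacuole, was lower by a smaller amount, -0.57 ± 0.16 with a limma adjusted p of 0.0255. That call was lost when ZnSO4 replicate 1 or 3 or untreated replicate 1 or 2 was left out, with the adjusted p reaching 0.213 over all settings. The other vacuolar zinc importer, ZRC1, was at 0.08, 0.20 and 0.25 in ZnSO4 and at 0.09, 0.10 and 0.44 in untreated cultures, so the groups overlapped (adjusted p 0.861). MSC2 and ZRG17, which form a zinc transporter of the endoplasmic reticulum, differed by -0.12 ± 0.10 and -0.05 ± 0.11 (limma adjusted p 0.447 and 0.812). YKE4, a zinc transporter of the same compartment, differed by 0.02 ± 0.15 (adjusted p 0.949). The 4 genes that did not differ past the threshold between ZnSO4 and untreated cultures act on zinc inside the cell, as does COT1, while ZRT3, the vacuolar exporter, fell with the transporters of the plasma membrane.

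Among 24 tested genes of a list of 27 Zap1 targets, 7 were lower and 1 was higher in ZnSO4, and their median change was -0.09. The shares over all genes tested were 7.76% lower and 8.79% higher. The 7 were ZRT1, ZRT2, ZRT3, FET4, ZPS1, HSP26 and ZAP1 itself. ZPS1, a cell surface protein made under zinc limitation, was at -1.34, -1.85 and -1.52 in ZnSO4 and at 1.06, 0.58 and 1.14 in untreated cultures, a 5.65-fold lower level (-2.50 ± 0.20, limma adjusted p 9.48e-07). ZAP1, the activator's own gene, was picked out after its values were seen. It was at -1.01, -0.91 and -0.52 in ZnSO4 and at 0.92, 0.97 and 1.33 in untreated cultures, 3.70-fold lower in ZnSO4 (-1.89 ± 0.19, adjusted p 7.49e-06). The ZAP1 values of the ZnSO4 and untreated cultures did not overlap, which held for 2033 of the 5606 genes tested (36.3%). HSP26, a small heat shock protein, differed by -1.72 ± 0.40 (limma adjusted p 0.00788), a call lost without replicate 3 of every group (adjusted p 0.179). The gene that was higher, also singled out after its values were seen, was ADH4, an alcohol dehydrogenase gene next to ZRT1 on the chromosome. ADH4 was at 0.10, 0.41 and 0.20 in ZnSO4 against -0.30, -0.14 and -0.25 in untreated cultures (0.47 ± 0.13, limma adjusted p 0.0208). It was not called without ZnSO4 replicate 2, without untreated replicate 1 or 3, or without replicate 1, 2 or 3 of every group. In the same order of genes, ADH6 stands next to FET4 and was higher in ZnSO4 while FET4 was lower.

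**Figure D1:**
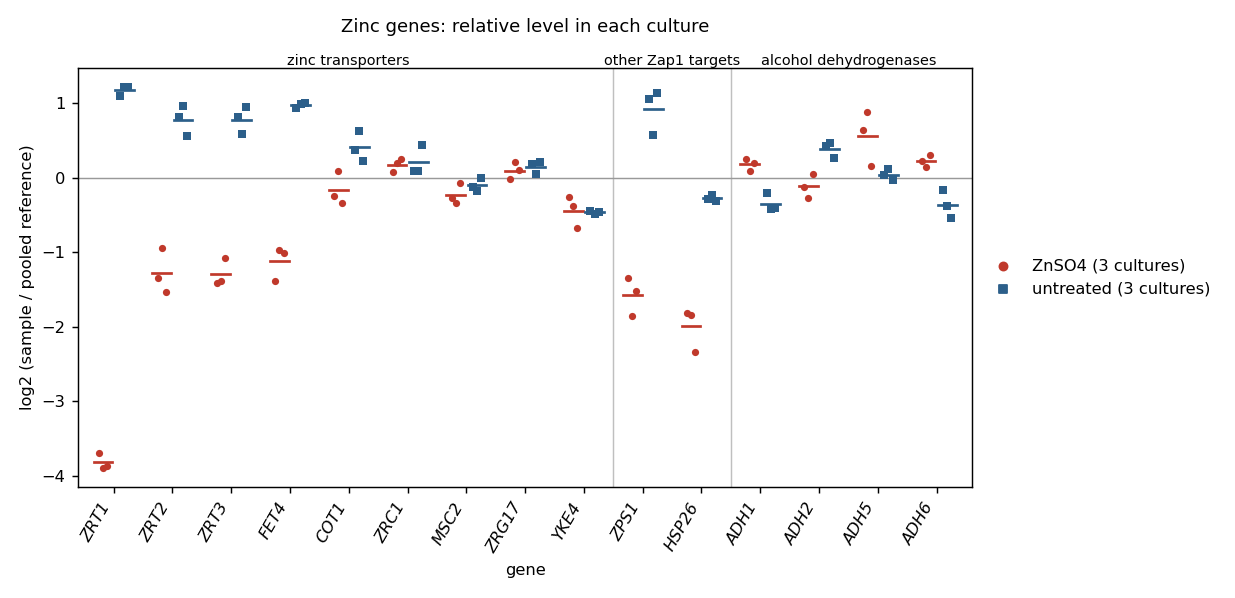
Relative level (log2 of sample over the pooled reference, vertical axis) of zinc transporters, 2 other Zap1 targets and 4 alcohol dehydrogenase genes. Circles are the 3 ZnSO4 cultures, squares the 3 untreated cultures and bars their means; ZRT1 lies between -3.90 and -3.70 in ZnSO4 and between 1.10 and 1.22 in untreated cultures, and ZRC1 overlaps.

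The alcohol dehydrogenases are zinc enzymes, and ADH1, the main fermentative enzyme, is among the most abundant zinc proteins of the cell. Of 6 such genes 3 were higher and 1 lower in ZnSO4. The higher genes were ADH1, ADH6 and ADH4, and ADH4 is also the higher gene of the Zap1 list. ADH1 was at 0.25, 0.09 and 0.20 in ZnSO4 and at -0.21, -0.42 and -0.41 in untreated cultures, 1.44-fold higher (0.53 ± 0.11, limma adjusted p 0.00442). The groups did not overlap, which held for 36.3% of all genes tested. The ADH1 call was lost with median centring of the arrays and without replicate 3 of every group. ADH6, a dehydrogenase that uses NADPH, was higher by 0.58 ± 0.14 (adjusted p 0.0111), and ADH2, which oxidises ethanol, was lower by -0.50 ± 0.16 (adjusted p 0.0394). The ADH6 call was lost without untreated replicate 3, and ADH2, well above background on 2 of 4 ZnSO4 arrays, was not called in 11 of the 20 alternative settings that tested it. ADH5 differed by 0.52 ± 0.22, with a limma adjusted p of 0.127, or 0.0277 with the replicate block. Without replicate 3 of every group 0 of the 6 genes were higher, and without untreated replicate 3 the count was 1.

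All 7 genes of the siderophore and cell wall iron list were lower in ZnSO4, with a median change of -2.33, and the count stayed at 7 under each left-out culture and replicate. FIT1, a cell wall mannoprotein that retains iron bound to siderophores, was at -3.43, -2.98 and -2.65 in ZnSO4 and at 0.91, 0.94 and 1.13 in untreated cultures. That is a 16.1-fold lower level (-4.01 ± 0.17, limma adjusted p 6.17e-10), the second largest fall of all genes tested. Its relatives FIT2 and FIT3, neighbours on the chromosome, were 4.15-fold and 6.78-fold lower (-2.05 ± 0.29 and -2.76 ± 0.26, limma adjusted p 0.000186 and 4.28e-06). FIT2 varied more among the cultures of a group than FIT3, at -0.95, -1.36 and -1.59 in ZnSO4 against 0.87, 0.27 and 1.11 in untreated cultures.

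The remaining 4 genes of that list encode transporters that import iron bound to siderophores, the iron chelators made by other microbes. ARN2 was at -1.83, -1.82 and -1.76 in ZnSO4 and at 1.19, 1.17 and 1.41 in untreated cultures, and was 8.33-fold lower (-3.06 ± 0.20, limma adjusted p 1.28e-07). SIT1 was 5.01-fold lower (-2.33 ± 0.24, adjusted p 9.17e-06), ARN1 3.59-fold lower (-1.84 ± 0.20, adjusted p 1.44e-05) and ENB1 3.45-fold lower (-1.79 ± 0.19, adjusted p 1.34e-05). In each of the 4 genes every ZnSO4 culture was below the pool and every untreated culture above it.

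The second route of iron uptake reduces ferric iron at the cell surface and carries it in with a ferroxidase and permease pair. Of 11 tested genes for this route, 8 were lower and 0 higher in ZnSO4, with a median change of -1.54. The reductase gene FRE1, which serves both iron and copper uptake, was at -2.35, -1.82 and -1.10 in ZnSO4 and at 1.29, 1.40 and 1.37 in untreated cultures. FRE1 was 8.65-fold lower (-3.11 ± 0.23, limma adjusted p 3.74e-07), and its ZnSO4 cultures spread over more than 1 log2 unit while its untreated cultures did not. The reductase FRE2 was 6.72-fold lower (-2.75 ± 0.17, adjusted p 1.11e-07) and FRE5, a reductase homologue, 3.57-fold lower (-1.84 ± 0.16, adjusted p 2.24e-06). FET3, the multicopper ferroxidase that needs copper to work, was at -1.08, -0.99 and -0.91 in ZnSO4 against 0.85, 0.69 and 0.77 in untreated cultures, 3.39-fold lower (-1.76 ± 0.18, adjusted p 9.40e-06). FRE7, a reductase homologue regulated by copper, was at -1.92, -1.61 and -0.90 in ZnSO4 and at -1.37, -0.90 and -1.38 in untreated cultures, so the groups overlapped (adjusted p 0.634). FRE7 was well above background on 2 of 4 ZnSO4 and 2 of 3 untreated arrays.

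Of 24 genes for handling iron inside the cell, 9 were lower and 3 higher in ZnSO4, and the median change was -0.09. Over all genes tested 7.76% were lower and 8.79% higher. HMX1, a heme oxygenase that recovers iron from heme, was at -2.56, -2.41 and -2.10 in ZnSO4 against 0.27, 0.38 and 0.24 in untreated cultures, 6.30-fold lower (-2.66 ± 0.22, limma adjusted p 1.55e-06). TIS11, also called CTH2, binds mRNAs of iron-using proteins and promotes their decay. TIS11 was 2.78-fold lower (-1.47 ± 0.34, adjusted p 0.00655), a call lost without replicate 3 of every group. MRS4, a mitochondrial iron carrier, was 2.22-fold lower (-1.15 ± 0.12, adjusted p 1.44e-05). CCC1, which stores iron in the vacuole, moved the other way, at -0.04, 0.17 and -0.28 in ZnSO4 against -1.14, -1.07 and -1.25 in untreated cultures, 2.15-fold higher (1.10 ± 0.13, adjusted p 6.13e-05). The lower count was 5 without replicate 3, and the higher count was 1 without ZnSO4 replicate 2 or 3 or untreated replicate 1 or 3.

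Copper uptake genes overlapped in part with these. Of 8 genes, 4 were lower and 1 higher in ZnSO4, against 7.76% and 8.79% of all genes tested. The high-affinity copper transporter CTR1 was at -2.21, -1.33 and -1.04 in ZnSO4 and at 1.02, 1.52 and 1.12 in untreated cultures, 6.71-fold lower (-2.75 ± 0.25, limma adjusted p 3.54e-06). The vacuolar copper transporter CTR2 and the second plasma membrane transporter CTR3 differed less, by -0.44 ± 0.10 and -0.42 ± 0.12 (limma adjusted p 0.00749 and 0.0270). CTR3 was not called in 11 of 21 alternative settings, among them without ZnSO4 replicate 1 or 2 or untreated replicate 1 or 3, and CTR2 was lost without any whole replicate. With FRE1 and CTR1 the only calls then left, the count of lower genes was 2. MAC1, the activator of copper uptake genes, differed by 0.04 ± 0.11 (adjusted p 0.872), and REE1 by -0.30 ± 0.26 (adjusted p 0.490). IRC7, a gene for a cysteine desulphhydrase, was higher by 0.71 ± 0.15 (adjusted p 0.00381), which was lost without replicate 2 or 3 of every group.

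**Figure D2:**
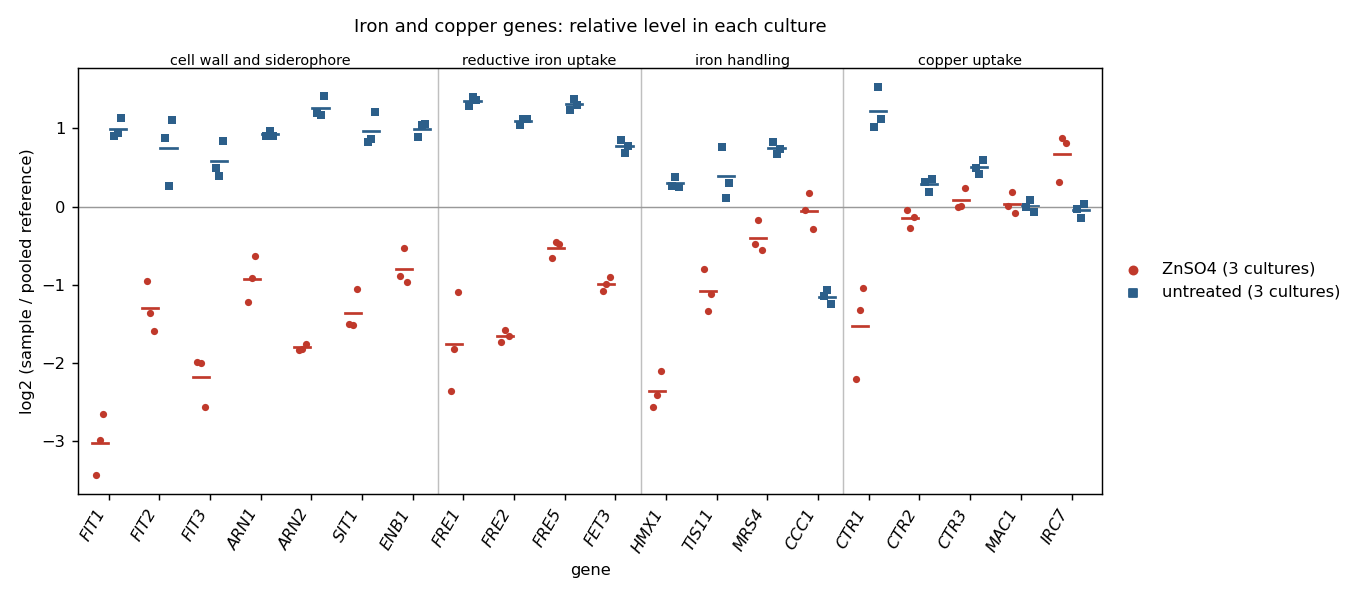
Relative level (log2 of sample over the pooled reference, vertical axis) of iron and copper genes. Circles are the 3 ZnSO4 cultures, squares the 3 untreated cultures and bars their means; the siderophore and reductive uptake genes lie below 0 in ZnSO4 and above it in untreated cultures, while CCC1 and IRC7 are higher in ZnSO4.

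In 7 genes for copper defence 0 were higher and 0 lower. The metallothionein genes CUP1-1 and CUP1-2, near-identical copies that 1 probe set cannot tell apart, differed by 0.70 ± 0.29 each (limma adjusted p 0.124 and 0.123). Their values in ZnSO4 overlapped those of the untreated cultures, at -3.37, -4.07 and -3.61 for CUP1-1 in ZnSO4 against -4.56, -4.79 and -3.79 in untreated cultures. Each ZnSO4 culture was above the untreated culture of its number, and with the replicate block CUP1-1 and CUP1-2 were called (limma adjusted p 0.0152 and 0.0162). Both were also called without untreated replicate 3 (limma adjusted p 0.0372 and 0.0412).

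The largest rises were in enzymes that use iron and in biotin synthesis. Of 20 genes for iron-sulfur enzymes 16 were higher and 0 lower in ZnSO4, with a median change of 1.02, and between 12 and 16 were called higher when cultures or replicates were left out. LEU1, the iron-sulfur isomerase of leucine synthesis, was at 0.12, 0.82 and -0.01 in ZnSO4 and at -3.69, -3.45 and -3.39 in untreated cultures. LEU1 was 14.1-fold higher (3.82 ± 0.26, limma adjusted p 2.12e-07), the largest rise of all genes tested. In the untreated cultures it stood far below the pool, and in the ZnSO4 cultures close to it.

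ILV3, the iron-sulfur dehydratase of isoleucine and valine synthesis, was 4.46-fold higher in ZnSO4 (2.16 ± 0.23, limma adjusted p 1.25e-05). GLT1, the iron-sulfur glutamate synthase, was at 0.87, 0.62 and 0.05 in ZnSO4 and at -1.53, -1.78 and -2.16 in untreated cultures, 5.04-fold higher (2.33 ± 0.25, adjusted p 1.61e-05). LYS4, the homoaconitase of lysine synthesis, was 3.03-fold higher (1.60 ± 0.25, adjusted p 0.000381), but it was the only 1 of 8 lysine genes to pass. The others differed by -0.38 to 0.27, and LYS4 is the iron-sulfur enzyme of that pathway. MET5, a subunit of sulphite reductase, was the largest of the 4 iron-sulfur genes that did not pass, at 1.07, 0.55 and 0.60 in ZnSO4 against -0.42, -0.87 and -0.75 in untreated cultures (1.42 ± 0.88, adjusted p 0.320). Its standard error pools the spread of all 6 groups, and with only the ZnSO4 and untreated samples in the fit it was called (adjusted p 0.000517).

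Of 14 branched-chain amino acid genes, LEU1 and ILV3 among them, 9 were higher and 0 lower in ZnSO4, with a median change of 0.81. BAT1, the mitochondrial branched-chain aminotransferase, was at 0.08, 0.59 and -0.10 in ZnSO4 against -1.66, -1.23 and -1.36 in untreated cultures, 3.05-fold higher (1.61 ± 0.26, limma adjusted p 0.000522). OAC1, a mitochondrial carrier that exports the leucine precursor, was 2.66-fold higher (1.41 ± 0.19, adjusted p 0.000121). Neither BAT1 nor OAC1 carries an iron-sulfur cluster. Of 27 genes for assembling the clusters 12 were higher and 2 lower, with a median of 0.33. Over all genes tested 8.79% were higher and 7.76% lower. ISA1, a late assembly factor for mitochondrial clusters, was 2.39-fold higher (1.25 ± 0.14, adjusted p 3.60e-05), and YFH1, the yeast frataxin, 1.87-fold higher (0.91 ± 0.12, adjusted p 0.000138). NFU1 and the ferredoxin YAH1 were higher by 0.91 ± 0.20 and 0.79 ± 0.15 (limma adjusted p 0.0047 and 0.00201). The higher count was 7 without ZnSO4 replicate 1 or 2 or untreated replicate 3, and 5 and 6 without replicate 1 and 3 of every group. The 2 lower genes, SSQ1 and ISU2, were singled out after their values were seen, and both calls were lost without ZnSO4 replicate 1 or untreated replicate 2.

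All 4 biotin synthesis genes were among the 12 largest rises. BIO2, the iron-sulfur biotin synthase of the last step, was at 1.29, 1.36 and 1.51 in ZnSO4 and at -1.69, -1.49 and -1.82 in untreated cultures, 8.29-fold higher (3.05 ± 0.28, limma adjusted p 3.54e-06). BIO3, BIO4 and BIO5, which encode 2 earlier enzymes and a carrier for a biotin precursor, lie side by side on the chromosome and have no iron-sulfur cluster. BIO3 was 7.74-fold higher (2.95 ± 0.24, adjusted p 1.43e-06), BIO5 7.70-fold higher (2.95 ± 0.21, adjusted p 3.74e-07) and BIO4 3.73-fold higher (1.90 ± 0.17, adjusted p 3.10e-06). These genes were above the pool in every ZnSO4 culture, at 1.10 or more, whereas LEU1 was near it. VHT1, the biotin importer, differed by 0.90 ± 0.29 (limma adjusted p 0.0421), a call lost without any single culture of the 2 groups and in 12 of 21 settings. The biotin ligase gene BPL1, the activator VHR1 and ARC1 differed by 0.21, 0.19 and 0.10 (limma adjusted p 0.470, 0.361 and 0.714).

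Of 28 respiratory chain genes 15 were higher and 0 lower in ZnSO4, with a median change of 0.61. CYC1, the main cytochrome c, was at 0.72, 0.16 and 0.02 in ZnSO4 and at -1.45, -1.81 and -1.90 in untreated cultures, 4.06-fold higher (2.02 ± 0.22, limma adjusted p 1.81e-05). Its probe was well above background on 4 of 4 ZnSO4 arrays and 2 of 3 untreated arrays. The succinate dehydrogenase genes SDH2, SDH3 and SDH4 were 2.70-fold, 2.58-fold and 2.78-fold higher, with differences of 1.43 ± 0.17, 1.37 ± 0.15 and 1.48 ± 0.16 (limma adjusted p 4.22e-05, 2.33e-05 and 1.77e-05). Heme synthesis changed at fewer points, with 3 of 11 genes higher and 1 lower, against 8.79% and 7.76% of all genes tested. HEM15, the ferrochelatase that inserts iron into heme, was 3.64-fold higher (1.86 ± 0.16, adjusted p 1.54e-06), HEM1, the first enzyme, 1.74-fold higher (0.80 ± 0.12, adjusted p 0.000384) and HEM13, the coproporphyrinogen oxidase, 1.51-fold higher (0.60 ± 0.18, adjusted p 0.0343). HAP1, the heme-responsive transcription factor, was lower by -0.72 ± 0.16 (adjusted p 0.0058). HEM13 lost its call without any 1 of ZnSO4 replicate 1 or 3 or the untreated replicates, and HAP1 without replicate 1 or 3 of every group, while 2 heme genes were lower with the replicate block.

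Of 12 genes of the citric acid cycle 1 was higher and 3 were lower in ZnSO4, with a median change of -0.15. Over all genes tested 8.79% were higher and 7.76% lower, so the count of higher genes does not set the list apart. The higher gene was ACO1, the iron-sulfur aconitase, at 0.29, 0.59 and 0.62 in ZnSO4 against -0.45, -0.45 and -0.21 in untreated cultures (0.87 ± 0.11, limma adjusted p 6.29e-05). The lower genes were the citrate synthase CIT1 (-0.66 ± 0.12, adjusted p 0.00161) and both subunits of isocitrate dehydrogenase, IDH1 and IDH2 (-0.67 ± 0.14 and -0.58 ± 0.13, limma adjusted p 0.00474 and 0.00490). Without replicate 1 or 3 of every group the lower count was 1, and with the replicate block 2 genes were higher.

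**Figure D3:**
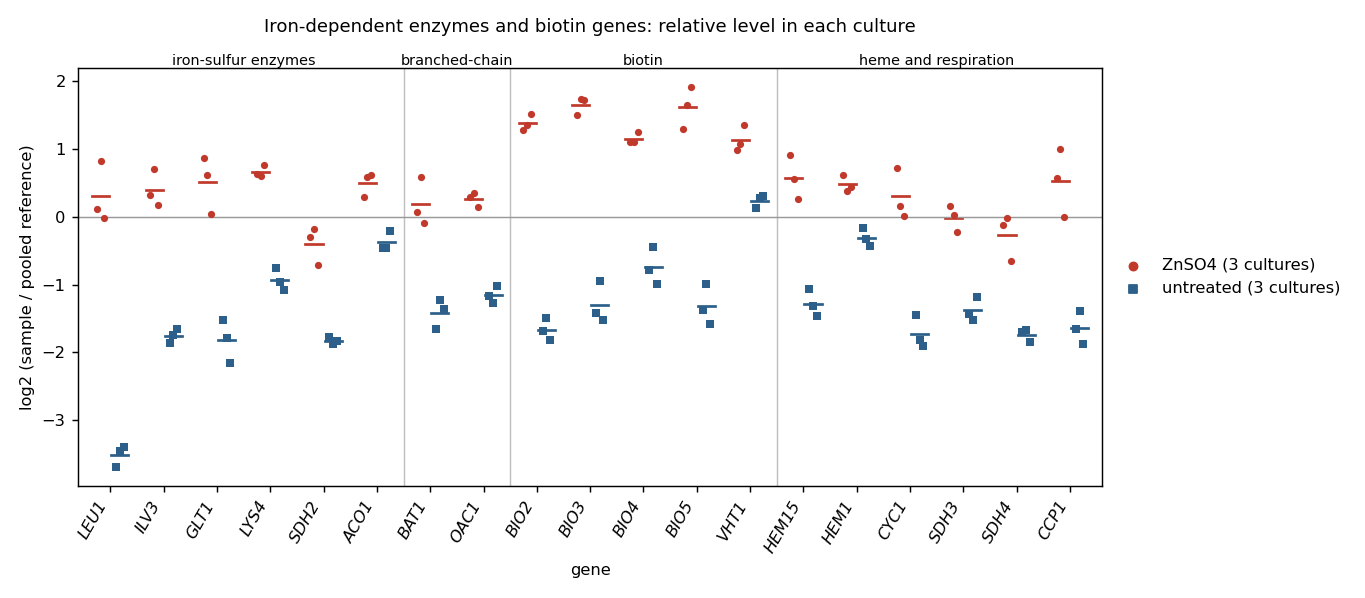
Relative level (log2 of sample over the pooled reference, vertical axis) of iron-sulfur enzymes, branched-chain, biotin, heme and respiratory genes. Circles are the 3 ZnSO4 cultures, squares the 3 untreated cultures and bars their means. In each gene shown all 3 ZnSO4 cultures lie above all 3 untreated cultures. The groups did not overlap in 36.3% of all genes tested, and the genes shown were named partly by the size of this change. LEU1 lies at -3.39 or below in every untreated culture.

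CCP1, the heme enzyme cytochrome c peroxidase of mitochondria, was 4.50-fold higher in ZnSO4 (2.17 ± 0.20, limma adjusted p 3.66e-06) and led the list of oxidative defence genes. Of 31 such genes 4 were higher and 2 lower, with a median change of 0.02. Over all genes tested 8.79% were higher and 7.76% lower, so these counts do not set the list apart. The other 3 higher genes were the catalases CTT1 and CTA1, also heme enzymes, and the multidrug transporter ATR1. CTA1, well above background on 3 of 4 ZnSO4 and 2 of 3 untreated arrays, was higher by 0.87 ± 0.13 (adjusted p 0.000294), ATR1 by 1.14 ± 0.17 (adjusted p 0.000287) and CTT1 by 1.26 ± 0.31 (adjusted p 0.0114). CTT1 lost its call without ZnSO4 replicate 2 or untreated replicate 1. SOD1, the copper and zinc superoxide dismutase, was at -0.20, -0.61 and -0.44 in ZnSO4 and at -0.48, -0.30 and 0.03 in untreated cultures, and the groups overlapped (adjusted p 0.699). The 2 lower genes, AHP1 and OYE2, were picked out after their values were seen, and 0 genes were lower without ZnSO4 replicate 1 or untreated replicate 2.

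The general stress response is a set of genes that yeast raises under many insults. Of 31 such genes 14 were lower and 1 higher in ZnSO4, with a median change of -0.80. GLC3, the glycogen branching enzyme, was at -1.36, -1.27 and -1.51 in ZnSO4 and at 0.53, 0.59 and 0.63 in untreated cultures, 3.90-fold lower (-1.96 ± 0.17, limma adjusted p 2.45e-06). The phosphoglucomutase PGM2 and the hexokinase HXK1 were 3.34-fold and 3.33-fold lower (-1.74 ± 0.25 and -1.74 ± 0.22, limma adjusted p 0.00021 and 6.93e-05). The higher gene was the catalase CTT1. Of 25 chaperone genes 8 were lower and 0 higher, with a median of -0.32. HSP30, a plasma membrane heat shock protein, was at -3.54, -3.57 and -2.68 in ZnSO4 against -0.79, -0.94 and -0.72 in untreated cultures, 5.46-fold lower (-2.45 ± 0.45, adjusted p 0.00169). The disaggregase HSP104 and the chaperone HSP82 were 2.58-fold and 2.29-fold lower (-1.37 ± 0.18 and -1.20 ± 0.18, limma adjusted p 0.000123 and 0.000346). Without replicate 3 of every group 8 stress genes and 3 chaperones were lower, and HSP30 was no longer called (adjusted p 0.0661).

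Of 11 tested hexose transport genes 7 were lower and 0 higher in ZnSO4, with a median change of -0.92. The high-affinity transporters HXT6 and HXT7 are neighbours with near-identical sequence, so their probes may read each other's RNA. HXT6 was at -0.53, -0.68 and -1.99 in ZnSO4 and at 1.13, 1.18 and 1.10 in untreated cultures, 4.59-fold lower (-2.20 ± 0.33, limma adjusted p 0.000346). ZnSO4 replicate 3 was the lowest culture for HXT6 and for HXT7, which was 4.44-fold lower (-2.15 ± 0.38, adjusted p 0.00112). HXT5, a transporter of slowly growing cells, was lower by -1.75 ± 0.44 (adjusted p 0.0123), but not once untreated replicate 2 was left out. HXT4 differed by -1.33 ± 0.51 (adjusted p 0.0891, or 0.0198 with the replicate block). The count was 4 without ZnSO4 replicate 1, untreated replicate 1 or untreated replicate 2, and 2 without replicate 3 of every group.

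Of 32 ribosome biogenesis genes, whose products build ribosomes in the nucleolus, 27 were higher and 0 lower in ZnSO4, with a median change of 0.87. NSR1, a nucleolar protein of ribosomal RNA processing, was at 0.40, 0.15 and 0.69 in ZnSO4 and at -1.24, -1.15 and -1.38 in untreated cultures, 3.19-fold higher (1.67 ± 0.25, limma adjusted p 0.000371). The helicase DBP2 was higher by 1.27 ± 0.30 (adjusted p 0.00811), RRP12 by 1.15 ± 0.17 (adjusted p 0.000371) and BRX1 by 1.09 ± 0.20 (adjusted p 0.00131). Without replicate 3 of every group 1 of the 32 genes was called higher, and NSR1 and DBP2 had an adjusted p of 0.0709 and 0.215. Of 137 genes of the ribosomal proteins themselves 1 was higher and 0 lower, with a median of 0.22. That gene was RPS9A (0.98 ± 0.23, limma adjusted p 0.00919), which was not called without ZnSO4 replicate 1 or untreated replicate 2.

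Among 12 arginine synthesis and use genes 4 were higher and 0 lower in ZnSO4, with a median change of 0.52. The shares over all genes tested were 8.79% higher and 7.76% lower. ARG7 and the ornithine carrier ORT1 were higher by 0.86 ± 0.21 and 0.71 ± 0.17 (limma adjusted p 0.00913 and 0.00973). In ARG7 and ORT1 ZnSO4 replicate 3 was the lowest ZnSO4 culture, at 0.06 and 0.17, and neither was called without ZnSO4 replicate 2. Without ZnSO4 replicate 3 the count of higher genes was 7, without ZnSO4 replicate 2 it was 2, and ARG1 was called with the replicate block (0.74 ± 0.29, adjusted p 0.105 without and 0.0215 with it).

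Sulfur assimilation genes make the reduced sulfur for methionine and cysteine. Of 26 tested genes 1 was higher and 0 lower, with a median change of 0.26. Over all genes tested 8.79% were higher and 7.76% lower. MET16, the reductase of activated sulphate, was at 0.99, 1.03 and 0.98 in ZnSO4 against -0.17, -0.38 and 0.05 in untreated cultures (1.17 ± 0.61, limma adjusted p 0.231). The MET16 groups did not overlap, which held for 2033 of the 5606 genes tested (36.3%). With only the ZnSO4 and untreated samples in the fit MET16 had a limma adjusted p of 0.000278. That fit called 7 genes of the list higher, and 528 of all genes. The gene called over all groups was the activator MET4, named after its values were seen (0.40 ± 0.13, adjusted p 0.0403). MET4 was not called without ZnSO4 replicate 1 or 2 or untreated replicate 1 or 3.

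In 25 sterol genes 3 were higher and 3 lower in ZnSO4, against 8.79% higher and 7.76% lower over all genes tested. The lanosterol synthase ERG7 was 2.07-fold higher (1.05 ± 0.17, limma adjusted p 0.000506) and the isomerase IDI1 1.47-fold higher (0.55 ± 0.10, adjusted p 0.00124). ERG11, the heme enzyme lanosterol demethylase, was higher by 0.59 ± 0.19 (adjusted p 0.0427) and was lost in 9 of 21 settings. ERG3, the desaturase with an iron centre, was lower by -0.77 ± 0.15 (adjusted p 0.00296). With the replicate block 5 sterol genes were lower, and without replicate 1 or 2 of every group 1 was lower. In 21 tested phosphate genes 3 were higher, or 6 with the replicate block, and between 1 and 2 when 1 culture was left out. The phosphate importer PHO84 was at -1.09, -0.49 and 0.52 in ZnSO4 and at -1.83, -1.24 and -1.64 in untreated cultures (1.22 ± 0.42, limma adjusted p 0.0608, or 0.0115 with the block), and was well above background on 4 of 4 ZnSO4 and 2 of 3 untreated arrays.

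Other lists held few calls, against 8.79% of genes higher and 7.76% lower over all genes tested. Of 13 multidrug export genes 2 were higher, the transporters QDR2 (0.68 ± 0.15, limma adjusted p 0.00429) and YOR1 (0.49 ± 0.12, adjusted p 0.0102), and YOR1 was lost without ZnSO4 replicate 2. Of 13 genes for protein folding in the endoplasmic reticulum 0 were called, and the folding chaperone KAR2 differed by -0.40 ± 0.28 (adjusted p 0.398). Of 23 phospholipid genes 2 were higher, led by the choline transporter HNM1 (0.76 ± 0.15, adjusted p 0.00258), and 1 was lower, OPI1 (-0.32 ± 0.10, adjusted p 0.0404), which was lost in 12 of 21 settings. Of 17 cell wall integrity genes 1 was higher and 1 lower, CIS3 and CWP1 (0.60 ± 0.18 and -0.78 ± 0.21, limma adjusted p 0.0347 and 0.0171). Neither of these cell wall calls held without ZnSO4 replicate 3 or untreated replicate 1. Of 7 genes specific to the a mating type 1 was higher, STE6 (0.35 ± 0.10, adjusted p 0.0229), which was lost without ZnSO4 replicate 1 or 2 or untreated replicate 3.

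Of the 24 largest changes 3 genes were in none of the lists, which were chosen with earlier results of these data known. AAD10, a putative aryl alcohol dehydrogenase, was at 0.69, 1.01 and 0.86 in ZnSO4 and at -0.95, -0.74 and -1.38 in untreated cultures, 3.66-fold higher (1.87 ± 0.29, limma adjusted p 0.000405), which was lost without replicate 3 of every group (adjusted p 0.0514). CIR2, a putative mitochondrial electron transfer flavoprotein oxidoreductase, was 3.49-fold higher (1.80 ± 0.15, adjusted p 1.48e-06). PHM7, a membrane protein of unclear function, was at -1.82, -1.93 and -1.78 in ZnSO4 and at 0.38, 0.59 and 0.41 in untreated cultures, 4.94-fold lower (-2.30 ± 0.20, adjusted p 2.35e-06).

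**Figure D4:**
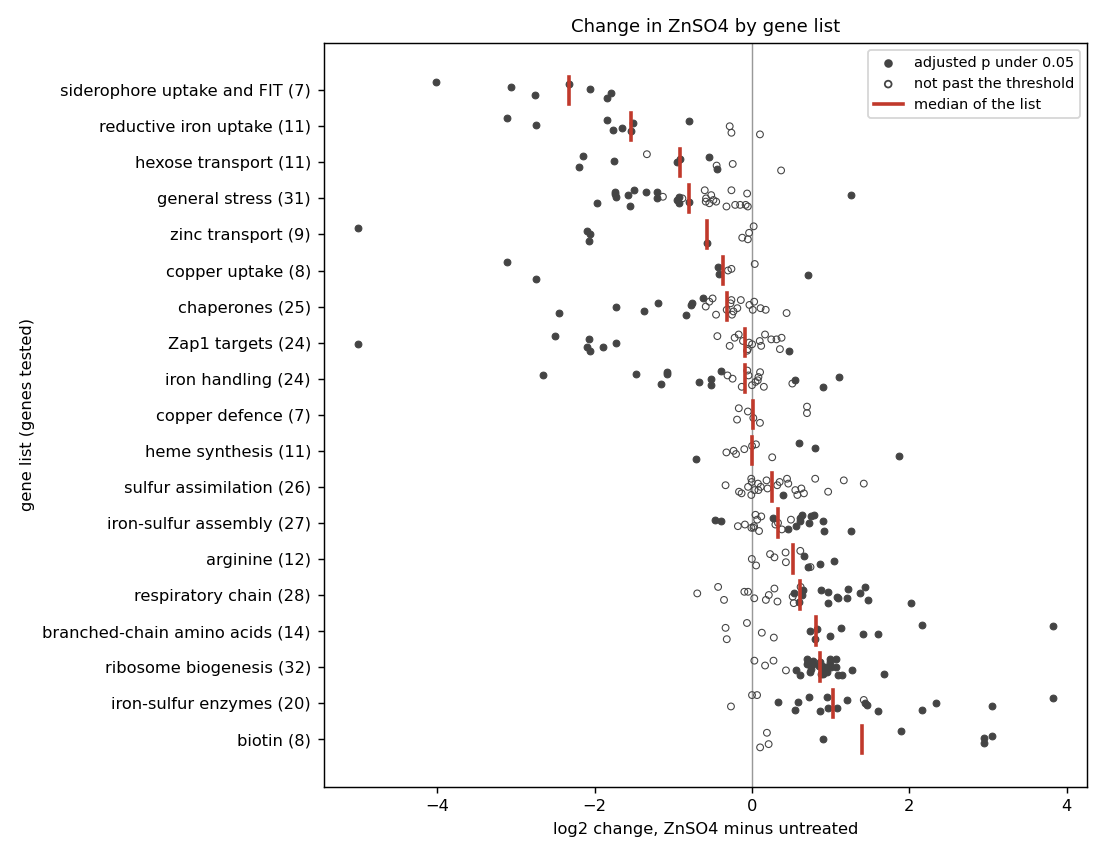
Change in ZnSO4 (log2, ZnSO4 minus untreated, horizontal axis) of each tested gene, by list, with the number of genes tested in brackets. Filled points have a limma adjusted p under 0.05 and red bars are list medians, from -2.33 for the siderophore list to 1.40 for biotin.

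The ZnSO4 cultures were also compared directly with the 3 cultures given 1 mM CuSO4. The untreated cultures drop out of this difference, and the doses of the metals were unequal. The difference therefore does not assign a change to either metal. ZnSO4 and CuSO4 cultures differed in 879 of 5606 genes (15.7%), with 373 (6.65%) higher and 506 (9.03%) lower in ZnSO4, or 659 and 761 with the replicate block. Counts fell to 195 higher and 261 lower without ZnSO4 replicate 2, 333 lower without ZnSO4 replicate 1, and 232 and 312 without CuSO4 replicate 1. Of the 138 genes named for this text that were tested, 59 differed, 35 higher and 24 lower in ZnSO4. They were named partly by their change from untreated cultures in the same ZnSO4 samples, so this share cannot be set against that of all genes. CuSO4 cultures differed from the same untreated cultures in 1939 genes (34.6%), 1011 higher (18%) and 928 lower (16.6%) in CuSO4.

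Leading Zap1 targets were lower in ZnSO4 than in CuSO4. ZRT1 was lower in ZnSO4 than in CuSO4 by -4.97 ± 0.16 (limma adjusted p 3.04e-11), and its difference between CuSO4 and untreated cultures was -0.03. ZPS1 was lower in ZnSO4 than in CuSO4 by -2.72 ± 0.20 (adjusted p 7.93e-07), ZRT2 by -1.57 ± 0.16 (adjusted p 2.29e-05) and ZRT3 by -1.29 ± 0.13 (adjusted p 2.10e-05). ZRT2 and ZRT3 were also lower in CuSO4 than in untreated cultures, by -0.48 and -0.79. FET4 differed between the metals by 0.23 ± 0.17 (adjusted p 0.42), and was -2.10 in ZnSO4 and -2.32 in CuSO4 relative to untreated cultures. COT1 was higher in ZnSO4 than in CuSO4 by 1.00 ± 0.16 (adjusted p 0.00101), and ZRC1 was lower by -0.33 ± 0.10 (adjusted p 0.0423).

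Of the 7 siderophore and cell wall genes 5 were higher in ZnSO4 than in CuSO4, with a median difference of 1.15. ARN2 was higher by 2.12 ± 0.20 (limma adjusted p 1.04e-05), ENB1 by 1.77 ± 0.19 (adjusted p 3.96e-05), ARN1 by 1.60 ± 0.20 (adjusted p 0.000171). FIT1 and SIT1 did not pass, with differences of 0.25 ± 0.17 and 0.53 ± 0.24 (limma adjusted p 0.348 and 0.145). Relative to untreated cultures ARN2 was -3.06 in ZnSO4 and -5.18 in CuSO4, and FIT1 -4.01 and -4.26. Of the 11 reductive genes 5 were higher and 1 was lower in ZnSO4 than in CuSO4. The lower gene, the permease FTR1, was named after its values were seen (-0.49 ± 0.16, limma adjusted p 0.0487). FRE5 was higher in ZnSO4 than in CuSO4 by 1.99 ± 0.16 (adjusted p 2.38e-06) and FRE1 by 1.16 ± 0.23 (adjusted p 0.00299), while FET3 differed by -0.50 ± 0.18 (adjusted p 0.0699). CTR1 was higher in ZnSO4 than in CuSO4 by 1.16 ± 0.25 (adjusted p 0.00598), and relative to untreated cultures was -2.75 in ZnSO4 and -3.91 in CuSO4.

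LEU1, ILV3 and GLT1 differed between ZnSO4 and CuSO4 by -0.56 ± 0.26, -0.29 ± 0.23 and 0.25 ± 0.25 (limma adjusted p 0.168, 0.42 and 0.561), so a difference was not detected at this spread. Of the 20 iron-sulfur genes 1 was higher and 5 were lower in ZnSO4 than in CuSO4. Biotin genes were higher in ZnSO4 than in CuSO4 in 6 of 8 cases. BIO5 was higher by 2.75 ± 0.21 (adjusted p 1.68e-06), BIO3 by 1.96 ± 0.24 (adjusted p 0.000171), VHT1 by 1.78 ± 0.29 (adjusted p 0.000895) and BIO4 by 1.14 ± 0.17 (adjusted p 0.000687). BIO2, which is both an iron-sulfur enzyme and a biotin gene, was higher by 0.90 ± 0.28 (adjusted p 0.0393). Relative to untreated cultures BIO5 was 2.95 in ZnSO4 and 0.19 in CuSO4, and BIO2 was 3.05 in ZnSO4 and 2.15 in CuSO4.

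The metallothionein genes and ribosomal protein genes were lower in ZnSO4 than in CuSO4. CUP1-1 was lower by -4.76 ± 0.29 (limma adjusted p 1.05e-07), with CuSO4 cultures at 1.53, 0.61 and 1.07. Of 137 ribosomal protein genes 130 were lower in ZnSO4 than in CuSO4, with a median difference of -1.29, and of 32 ribosome biogenesis genes 16 were lower. Against untreated cultures 135 of the 137 ribosomal protein genes were higher in CuSO4 (median 1.51) and 1 in ZnSO4 (median 0.22). All 32 ribosome biogenesis genes were higher in CuSO4 (median 1.53) and 27 in ZnSO4 (median 0.87). Sulfur assimilation differed the other way, with 14 of 26 genes higher in ZnSO4 than in CuSO4 and a median difference of 1.99, as did arginine genes, with 8 of 12 higher. Against untreated cultures 11 sulfur genes were lower in CuSO4 (median -1.49) and 0 in ZnSO4 (median 0.26). For arginine 3 genes were lower in CuSO4 (median -0.21), and 4 were higher in ZnSO4 (median 0.52). The transporter gene ATR1 was higher in ZnSO4 by 1.53 ± 0.17 (adjusted p 4.89e-05), the hexose transporter HXT6 lower by -1.52 ± 0.33 (adjusted p 0.00604), and AAD10 higher by 1.99 ± 0.29 (adjusted p 0.000562).

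**Figure D5:**
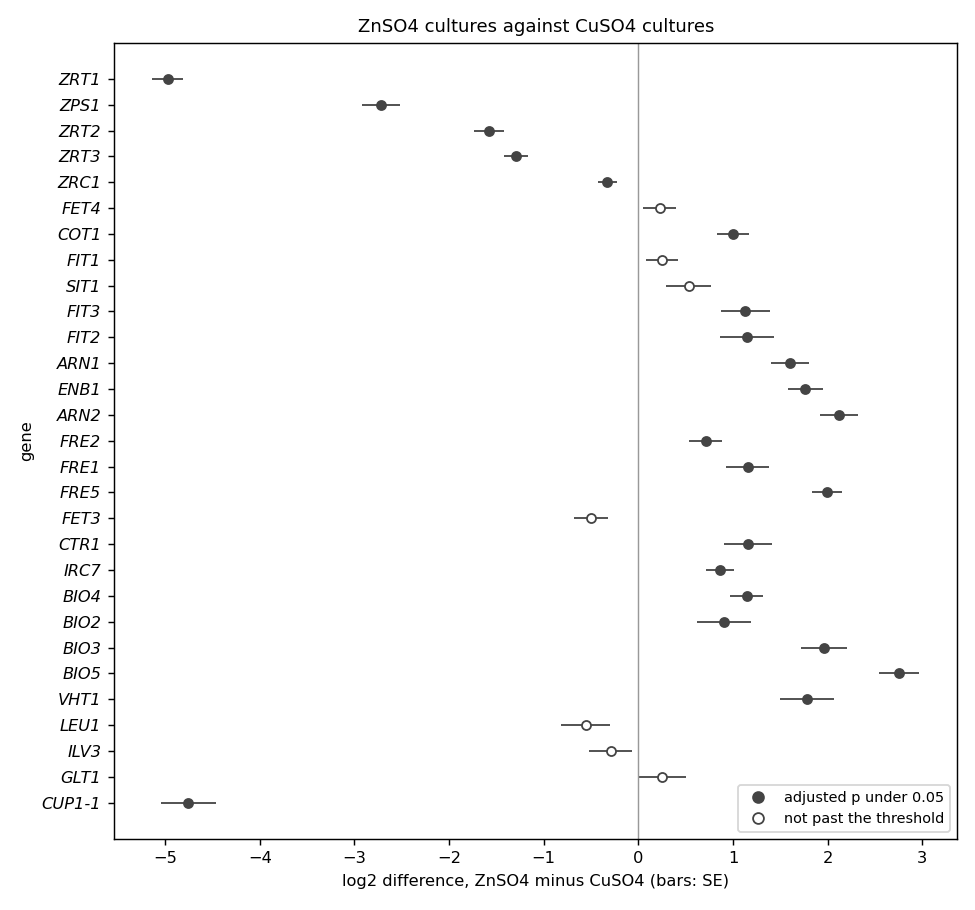
Difference between ZnSO4 and CuSO4 cultures (log2, ZnSO4 minus CuSO4, horizontal axis; bars are SE) for 29 genes. Filled points have a limma adjusted p under 0.05; ZRT1 at -4.97 and CUP1-1 at -4.76 are lowest and BIO5 at 2.75 is highest.

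Whether the zinc response depended on the statin was tested as the difference between the zinc change with the statin (2 statin with ZnSO4 samples against 3 statin samples) and without it. This differed in 58 of 5606 genes (1.03%), 37 (0.66%) higher and 21 (0.375%) lower, or 67 and 36 with the replicate block. The statin cultures also had a denser preculture (OD600 0.09 against 0.01) and were collected near 0.4, so the statin and these conditions cannot be told apart. Within the statin cultures 1235 genes (22%) differed with ZnSO4, 656 higher (11.7%) and 579 lower (10.3%). Without statin with ZnSO4 replicate 3 the counts were 10 and 8, and between 19 and 23 higher without statin replicate 1 or 3, ZnSO4 replicate 1 or any untreated culture. Lower counts were 9 without statin replicate 3, 44 without statin replicate 2, and 11, 12 and 9 without untreated replicate 1, 2 and 3.

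Of the 138 named genes tested 12 passed this test, against 58 of all 5606 genes (1.03%). Genes were named partly by the size of the zinc change without the statin, which enters this difference. The 2 shares therefore cannot be compared. Iron genes ENB1, FRE5 and FIT3 changed more with the statin, by -3.91, -3.46 and -4.49 in statin cultures against -1.79, -1.84 and -2.76 without it, and FRE7 by -2.32 against -0.26. The FRE7 difference had a limma adjusted p of 0.0451, or 0.0580 with the replicate block. The biotin carrier BIO5 changed by 0.60 with the statin and 2.95 without it, a difference of -2.34 ± 0.32 (limma adjusted p 0.00165). In statin with ZnSO4 samples BIO5 was at -1.37 and -1.18, against -1.45, -2.10 and -2.07 in statin samples. ARG1, argininosuccinate synthetase, changed by 3.82 with the statin and 0.74 without it. ARG1 was at -0.17 and -0.40 in statin with ZnSO4 samples and at -4.18, -4.00 and -4.16 in statin samples, and both groups lay below the ZnSO4 and untreated cultures without the statin. ZRT1 and LEU1 did not pass this test (limma adjusted p 0.0713 and 0.187).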

How the data were processed

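Total RNA was measured on 2-colour Agilent arrays. The deposited scanner files hold red and green median signal intensities per spot, per the file headers, and the submitters' processing notes name the scanner program, Agilent Feature Extraction, version 10.5.1.1. The authors' deposited value table held log10 sample-over-pool ratios, found to be the scanner program's log ratio with its sign turned, and served as an alternative. Further steps are not given in the sources used here.

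Median intensities were background-corrected (normexp, offset 50) and loess-normalised within each array with limma 3.58.1 in R 4.3.3, with control spots given weight 0 and outlier spots left out. Ratios were turned to log2 of sample over pool, and the 2 spots of a probe and then the arrays of one biological replicate were averaged. Genes with both spots well above background on every array of at least 1 group were tested (5606, with 650 left out). One limma fit covered all 6 groups (11 residual degrees of freedom), with no sample dropped and 6 missing values, and a gene was called at a Benjamini-Hochberg adjusted p under 0.05. Values after ± are standard errors. The spread is between cultures numbered as biological replicates, and precision is limited by the number of arrays. The fitting and calling steps were also run on simulated data with independent noise in each sample, so deviations shared by same-numbered samples were not covered.

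The members and gene lists were chosen with earlier results of these data known. Named genes were the 12 largest rises and 12 largest falls among called genes without overlap, all measured members of the zinc transport, siderophore, copper uptake, biotin and strain lists, up to 4 members of each other list with the largest change, and those of them that passed a test of a difference. Other names are marked in the text as chosen after their values were seen. Symbols were updated through RefSeq R64, where 5756 systematic names matched and 500 did not. Gene order came from the same table. Promoter sequences were not used here.

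Replicate numbers are shared by all groups and mark one scan each, per the file headers. Same-numbered ZnSO4 and untreated samples deviated together from their group means (correlations 0.473, 0.607 and 0.417, against at most -0.0825 for different numbers). Deviations cancel within a group, so the values for different numbers are not separate evidence of pairing. The main fit did not use the replicate number, which entered only as the replicate block. Alternatives covered background correction, normalisation, the dim-probe filter, the groups fitted, the replicate block, the first array only and each replicate left out.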

Additional observations from a re-analysis of the deposited data

Results flagged for a closer look

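In 12 of the 138 named genes tested the zinc change differed with the statin, by the interaction term of the limma fit. The share over all genes was 1.03%, but genes were named partly by the zinc change without the statin, which enters that term. The statin cannot be told apart from the denser preculture and earlier harvest of those cultures. The zinc change was lower with the statin in 7 genes. The difference was -2.34 for BIO5, -2.12 for ENB1, -2.06 for FRE7, -1.997 for AAD10, -1.73 for FIT3, -1.62 for FRE5 and -1.05 for ADH1 on the log2 scale. For ADH1 the zinc change was -0.52 with the statin and 0.53 without it. The zinc change was higher with the statin in the other 5 genes, by 3.08 for ARG1, 1.48 for OAC1, 1.47 for QDR2, 1.41 for LYS1 and 0.99 for CIT1. The statin with ZnSO4 group held 2 samples, and without its replicate 3 the interaction gave 10 higher and 8 lower genes in all.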

How the results depend on the processing

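The numbers of ZnSO4 genes, 493 higher and 435 lower, were 454 to 595 and 413 to 548 under other background corrections, normalisations, filters, fitted groups and arrays. With the replicate block they were 684 and 677. The block gave 659 higher and 761 lower genes for ZnSO4 minus CuSO4, and 67 and 36 for the interaction. It ended the FRE7 interaction call, and in the ZnSO4 minus CuSO4 test it added CYC1, HMX1, HAP1, DBP2, MET5, MET14, ERG3, HNM1 and LYS4. In the interaction it added CCP1, CIR2, ADH5, BAT1, ERG11, HXT6 and RTA1. Among named genes not called between ZnSO4 and untreated cultures it added those given with a block value in the report, and PHM8 (limma adjusted p 0.00623), CRH1 (0.0312) and BAR1 (0.0129). It changed no other named call. With cultures or replicates left out, the ZnSO4 counts ranged over 159 to 542 higher and 139 to 509 lower, those of ZnSO4 minus CuSO4 over 195 to 446 and 261 to 546, and those of the interaction over 10 to 54 and 8 to 44. One of these settings, without statin with CuSO4 replicate 2, was chosen after seeing the data. Of 93 called named genes 55 were called in all 21 settings, 2 (CYC1 and CTA1) in the 20 that tested them, and 36 were lost in at least 1; 19 others were gained in at least 1, and 0 changed direction. ZRT1 ranged over -5.51 to -4.94, FIT1 over -4.45 to -3.81, LEU1 over 3.57 to 4.43 and BIO5 over 2.66 to 3.29. Replicate 3 had fewer spots above background, and the part of this in its leave-out counts was not tested.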

Other observations

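Some named genes that lie next to each other in the RefSeq order moved in opposite directions in ZnSO4. ISA1 changed by 1.25 and its neighbour HSP104 by -1.37, ADH6 by 0.58 and FET4 by -2.10, and ADH4 by 0.47 and ZRT1 by -5.00, all on the log2 scale. Other neighbours moved the same way, among them FIT2, FIT3 and FRE5, and DBP3 and HNM1 (1.07 and 0.76).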
